A study of Oryza sativa with 12 samples.

Results

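Bala is an upland indica cultivar of rice (Oryza sativa), and the drought response of its leaves was taken from 6 arrays of the 12 in the series, 3 from droughted plants and 3 from control plants. The other 6 arrays are of Azucena, an upland tropical japonica cultivar treated in the same way. All plants were grown in field plots that were kept flooded. In the drought plots water was withheld from day 59 after sowing, and leaves of both groups were taken on day 83, which was 24 days into the drought, while the control plots remained flooded. The tissue was the middle of a fully expanded leaf next to the youngest such leaf, after 4 cm had been cut from each end, so leaf tips, leaf bases, roots and panicles were not sampled. Leaves of a field block were pooled in 1 bag, from 2 plots per block in drought and from 1 plot per block in control, with leaves from 3 plants in a plot, so each array is a pool of plants, and the labels do not tie a replicate number to a block. Neither group carries a transgene or a chemical treatment. Every probe set that is not a control was examined, whether the annotation gives its gene a name, only a locus identifier (a bare LOC number), or no gene.

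Leaves that lose water accumulate the hormone abscisic acid, which through kinases and transcription factors switches on genes for protective proteins, compatible solutes and surface lipids. Late embryogenesis abundant proteins and dehydrins protect membranes and proteins as cells dry, and small heat shock proteins keep damaged proteins from clumping. Genes for growth, nutrient uptake and defence are often lowered in the same leaves.

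Each array gave a linear signal for 57381 probe sets, with array medians of 9.6 to 11 in control and 11.2 to 11.8 in drought. The highest of 33 negative control probe sets served as the background level of an array and was 13.4, 13.9 and 18.5 in control and 18.9, 24.2 and 22.5 in drought. Spearman's correlation across the 33476 probe sets tested was 0.959 to 0.969 for pairs of Bala arrays within a group. For pairs between the groups it was 0.874 to 0.898. The 3′ to 5′ signal ratio of the GAPDH control, a sign of RNA integrity, was 1.88 to 2.26 in the control arrays and 1.31 to 1.34 in the drought arrays. For the actin control the ranges were 5.68 to 8.01 and 6.15 to 6.93, and for ubiquitin 0.711 to 0.775 and 0.687 to 0.732, so only the GAPDH ratio kept the groups apart, and its part in the results was not tested. Droughted leaf was still leaf by its markers. The summed signal of 12 green leaf genes was 48753 to 55729 in control and 38972 to 41517 in drought, 1 of them rose and 6 fell, and RBCS1 alone was at background on all 6 arrays. Of 12 floral organ genes 6, and of 7 shoot meristem genes 6, were at background on all 6 arrays. Of the other floral genes MADS16 rose and DL fell, and the floral sum was 225 to 269 in control and 266 to 328 in drought. The meristem gene FON1 was above background on every array, with means of 76 in control and 73.2 in drought. In whole leaf pieces, fewer cells of a type and less RNA per cell cannot be told apart.

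Signals below are listed as replicate 1, 2 and 3 of each group. Changes are log2 differences of signal + 16, drought minus control, with their standard error (SE). This scale understates the change of dim genes, so where a group was at background on all its arrays a lower bound in fold is given instead, against the higher of the background and the gene's own signal. The test was limma's, its p-values were adjusted by Benjamini and Hochberg's method over the 33476 probe sets tested, and a gene with an adjusted p of at most 0.05 is said to have risen or fallen.

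Bala leaves changed in a large share of their genes, and the extreme changes were mostly rises. Of 15608 genes tested 6465 (41.4%) were called, 4270 higher (27.4%) and 2195 lower (14.1%). Rises therefore made up 66.0% of the calls, but 51.6% after quantile normalization and 50.9% after the signals of all arrays were scaled to the same median, so the balance of rises and falls over all genes depended on the scaling. The median log2 change of all genes was 0.18 as deposited, 0.04 after quantile normalization and 0.03 after scaling to the same median. Medians of gene groups are therefore given relative to that of all genes. Counts of gene lists are to be read beside the shares of all genes, 27.4% higher and 14.1% lower. Rises also outnumbered falls among large changes. At least 4-fold rises were seen in 384 genes and falls of that size in 257, and for 8-fold the counts were 168 and 63. At 16-fold they were 77 and 15, and at 32-fold 34 and 2. In 8071 genes (51.7%) the 3 drought arrays did not overlap the 3 control arrays, and 6207 of these (39.8% of all) were also called.

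**Figure D1:**
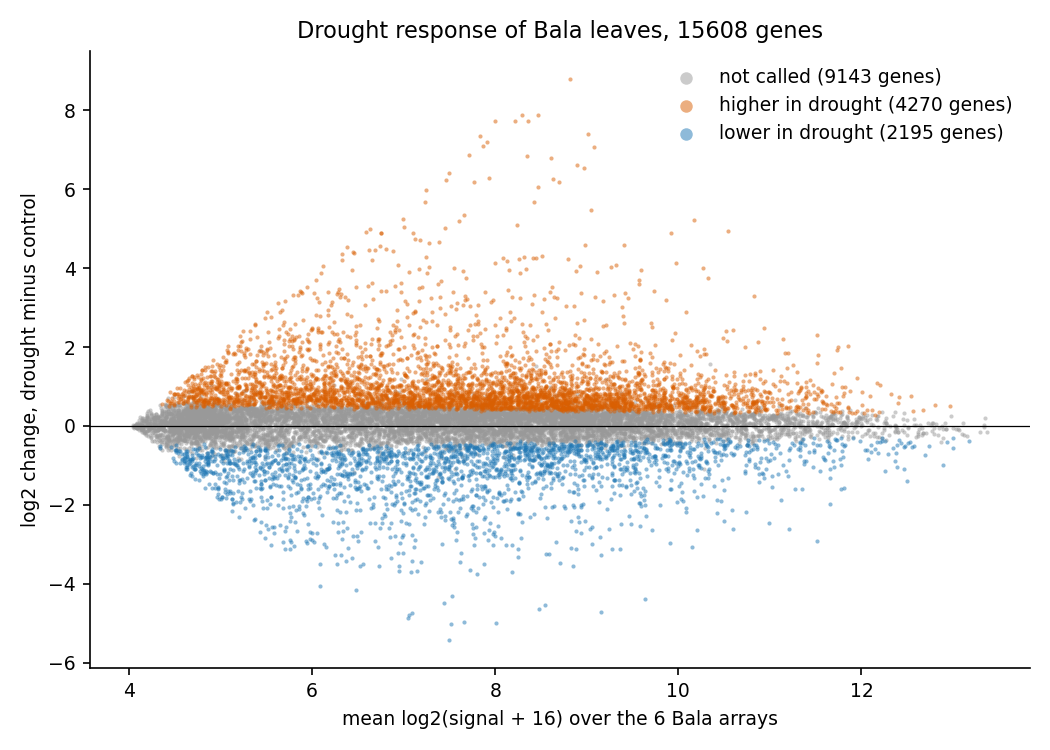
Log2 change in Bala (drought minus control, y axis) against the mean log2(signal + 16) of the 6 Bala arrays (x axis), with 1 point per gene for 15608 genes. The 4270 genes called higher reach above 8, and none of the 2195 called lower falls below -6.

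Some genes crossed the background level altogether. In 220 genes all 3 control arrays were at background and all 3 drought arrays above it, and 219 of these were called. In 355 genes the reverse held, and 278 of these were called lower. The background level was 13.4, 13.9 and 18.5 in control and 18.9, 24.2 and 22.5 in drought. A dim gene of unchanged signal could therefore be counted among the 355, and the part of this in the counts was not tested. Genes that appeared could become bright, since 16 of the 220 reached a mean drought signal above 1000. Of the 355 that disappeared, 1 had a mean control signal above 1000. A further 983 genes were at background on all 6 arrays.

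Genes without a name were called somewhat less often than genes with a name, a difference that was not tested. Of the genes tested, 13445 are known only by a locus identifier, and 5462 of them were called (40.6%), 3639 higher (27.1%) and 1823 lower (13.6%). Of the 2163 genes with a name 1003 were called (46.4%), 631 higher (29.2%) and 372 lower (17.2%). Of the 34 genes that rose 32-fold or more, 21 had only a locus identifier and 13 a name. These were 0.156% of the genes with only a locus identifier and 0.601% of the genes with a name. Both genes that fell that far had only a locus identifier. Of the 16 genes that went from background to above 1000, 9 had only a locus identifier and 7 a name, out of 13445 and 2163 genes tested.

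The largest rise among them was in LOC4324081. Its signals were 7.1, 8.4 and 5.8 in control and 6586.7, 5907.7 and 4064.4 in drought, a rise of at least 358-fold (adjusted p = 2.2e-14). All control arrays were at background and the drought arrays lay far above them. LOC4345700 had 1.6, 2.4 and 0.6 in control and 4451.7, 3665.8 and 3130.4 in drought, at least 246-fold higher (adjusted p = 3.9e-15). LOC4344438 had 3.2, 10.9 and 0.6 against 6317.7, 5227.7 and 2384.9, at least 284-fold higher (adjusted p = 5.8e-12). Each of these went from no signal above background to a bright one, although drought replicate 3 was the lowest drought array in all 3 genes. LOC4335556 was above background on 2 of 3 control arrays, with 11, 44.8 and 22.9, and reached 8028.7, 7673.9 and 4906.3 in drought (log2 change 7.40, SE 0.28, adjusted p = 5.8e-12). LOC9267997 went from 3.5, 1.2 and 7.6 to 4678.5, 3863.7 and 1099.8, at least 179-fold higher (adjusted p = 6.3e-10). Its 4 probe sets all rose, the least of them by 3.94, and drought replicate 3 was well below the other drought arrays. LOC4332420 was at background in control and rose at least 148-fold, to 2781.1, 2892.6 and 1399.3. The probe sets used for LOC4344438, LOC9267997 and LOC4332420 carry the maker's suffix for probes shared with other transcripts, so their signal may include near-identical genes.

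The next rises also began near background. LOC4340788 had 26.0, 9.5 and 10 in control and 2695.7, 4448.3 and 3445.6 in drought (log2 change 6.84, SE 0.24, adjusted p = 2.6e-12). Its probe set too is of a type that may bind other transcripts. LOC4347708 had uneven drought arrays, with 7964.8, 4644.6 and 1871.8 after 31.1, 0.8 and 47.6 in control (log2 change 6.80, SE 0.48, adjusted p = 1.6e-08). LOC4328929 changed by 6.61, from 35, 55.3 and 14.7 to 5233.8, 5162.0 and 3829.8. The control and drought arrays of these genes did not overlap. LOC4339527 rose at least 109-fold by the probe set used, to 2043.8, 1612.3 and 1359.6, while its other probe set fell, with a change of -1.27. LOC4346387 rose at least 142-fold, LOC4324254 at least 100-fold and LOC4349062 at least 70.2-fold, all from background. LOC4324254 was even across the drought arrays, with 1601.3, 1511.3 and 1433.4. LOC4324175 had a change of 6.19 and LOC4332481 of 6.06, the latter from 25.4, 25.3 and 31.6 to 3370.9, 2842.8 and 2496.3.

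**Figure D2:**
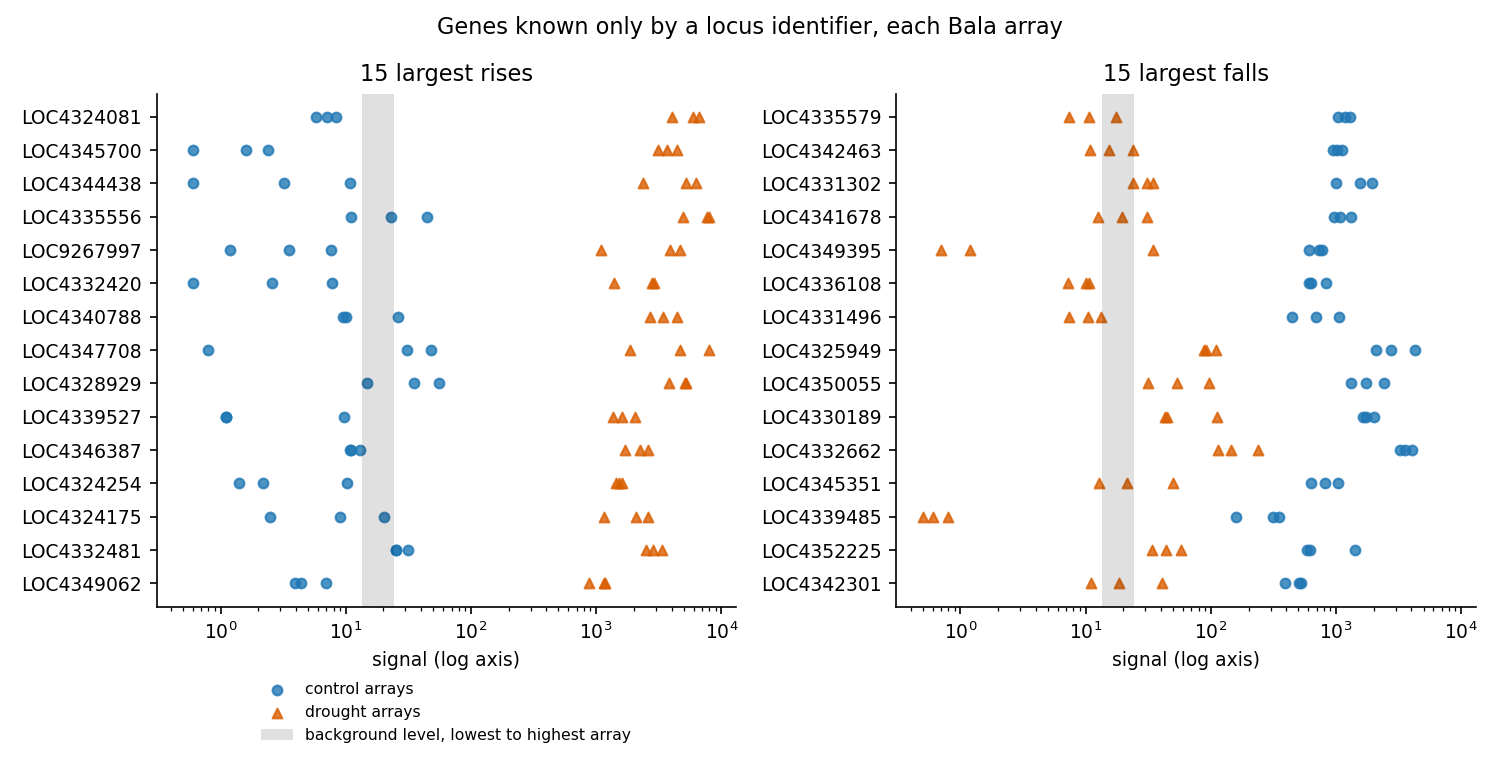
Signal on each Bala array (log axis) of the 15 largest rises (left) and the 15 largest falls (right) among genes known only by a locus identifier, with control arrays as circles, drought arrays as triangles and the range of the background levels, 13.4 to 24.2, in grey. In every gene shown the groups are apart, and on the right several drought signals lie in or below the grey band.

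The largest falls were smaller than the largest rises. LOC4335579 fell furthest, from 1170.0, 1285.6 and 1040.7 to 17.5, 10.6 and 7.4, at least 53.4-fold (adjusted p = 3.7e-12). It was the gene with a mean control signal above 1000 that ended at background on all 3 drought arrays, though its other probe set, at 0.44, was not called lower. LOC4342463 went from 1119.2, 1011.0 and 945.6 to 15.3, 10.8 and 23.7 (log2 change -5.01, SE 0.23, adjusted p = 6.1e-11). LOC4331302 had 1927.2, 1541.7 and 1004.2 in control and 30.7, 24.0 and 34.5 in drought, and LOC4341678 had 1074.6, 969.6 and 1328.2 against 30.7, 12.6 and 19.7. Their changes were -5.00 and -4.96. LOC4349395 fell by 4.87 with unequal drought arrays, 34.7, 1.2 and 0.7, after 736.5, 602.8 and 773.1 in control. LOC4336108, whose probes are shared with other transcripts, fell at least 31.5-fold, and LOC4331496, annotated as a long non-coding RNA, at least 31.7-fold. The control arrays of LOC4331496 were spread, at 688.3, 1064.0 and 448.6, and its drought arrays were 10.5, 7.4 and 13.2.

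Some of these genes stayed above background on at least 2 drought arrays. LOC4325949 went from 2755.1, 4286.8 and 2102.8 to 87.8, 91.1 and 109.2 (log2 change -4.72, SE 0.24, adjusted p = 2.6e-10). LOC4332662, bright in control at 3585.8, 4073.2 and 3246.2, stood at 236.6, 115.1 and 144.0 in drought (log2 change -4.38, SE 0.20, adjusted p = 6.1e-11). LOC4350055 changed by -4.63, LOC4330189 by -4.55 and LOC4345351 by -4.32. The control and drought arrays of each were apart. LOC4339485 fell at least 12-fold to 0.6, 0.8 and 0.5, with LOC4352225 at -3.76 and LOC4342301 at -3.70 closing the 15.

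Of 14547 probe sets tested that the annotation table does not pair with a gene, 1902 rose (13.1%) and 1148 fell (7.89%). Among all 33476 probe sets, these included, the shares were 20.6% and 10.9%, and the difference was not tested. Some of them rose from background or fell to it. Os.42784.1.S1_at had 6.0, 9.2 and 13.1 in control and 6592.3, 6508.9 and 5084.8 in drought, at least 399-fold higher (adjusted p = 2.2e-14). Os.47871.1.S1_at had 1.2, 0.1 and 0.1 against 2407.1, 2155.2 and 1919.5, at least 142-fold higher. Both were at background in every control array. Os.36278.1.S1_x_at went from 3100.8, 4955.5 and 3490.9 to 47.7, 59.8 and 74.8 (log2 change -5.64, SE 0.20, adjusted p = 2.2e-12). OsAffx.6331.1.S1_at fell from 792.1, 754.3 and 852.1 to background, at least 36.7-fold (adjusted p = 1.1e-06). Of 42 genes annotated as long non-coding RNA 10 rose (23.8%) and 3 fell (7.14%), against 27.4% and 14.1% of all genes.

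In the gene order of the ASM3414082v1 assembly there were 11 runs of at least 3 adjacent genes that were all called in the same direction with a change of at least 1, 8 of them higher and 3 lower. Changes of that size were common, with 1417 of 15608 genes higher and 1024 lower, and whether runs were more frequent than such rates give was not tested. The longest held 4 genes, LOC4332359 and the small heat shock protein genes HSP17.4, HSP18.1 and HSP17.7. LOC4332359 changed least among them, from 125.4, 124.5 and 170.3 to 265.1, 333.8 and 301.5 (log2 change 1.03, adjusted p = 0.0001). A run made up wholly of locus identifiers was LOC4332195, LOC4332196 and LOC4332197, with changes of 2.36, 2.31 and 1.02, and another LOC4339366 to LOC4339368, with 2.66, 1.08 and 1.48. Among the lower runs, LOC4345359 went from 342.8, 399.7 and 419.5 to 34.6, 69.4 and 87.8, beside LOC4345360 at -1.28 and LOC4345361 at -1.59. LOC4352116 (-2.45) headed a run with LOC4352117 and LOC4352118. These genes were taken from the list of runs after their values were seen. Pairs also stood out among the largest changes, since RAB21 lies next to RAB16B, RAB16C next to RAB16D (4.88), HSP16.9A next to HSP16.9B, LOC9267997 next to LOC4334918 (2.40) and LOC4336108 next to LOC4336109 (-3.03). Neighbours that are near-identical copies may share probes.

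Among genes with a name, dehydrins and small heat shock proteins led. RAB21 (LOC4350454), a dehydrin, had 12, 4.6 and 0.8 in control and 10420.1, 10108.7 and 8101.7 in drought, at least 628-fold higher (adjusted p = 1e-12). RAB16B had 5.5, 6.3 and 7.8 against 5692.4, 5171.0 and 3760.4, and LEA19 had 4.5, 0.8 and 0.3 against 4189.2, 2967.4 and 1971.0. Both were at background in every control array. Outside these protein families, CHS (LOC4350636), which encodes chalcone synthase at the entry to flavonoid synthesis, had the largest rise. Its signals were 46.5, 31.3 and 22.8 in control and 3583.7, 3649.7 and 3320.3 in drought (log2 change 6.18, SE 0.18, adjusted p = 3.7e-13). The drought arrays were nearly equal, and all 5 of its probe sets rose, by 0.87 to 6.18.

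The largest falls among named genes came from many families. AT5 (LOC4338283) had 723.4, 1444.7 and 499.2 in control and 10.1, 19.2 and 36.9 in drought (log2 change -4.49, SE 0.32, adjusted p = 1.7e-08). ERG1 (LOC4327497) went from 434.0, 365.4 and 296.5 to 1.8, 1.3 and 14.8, at least 16.6-fold lower, and OsCASPL1U2 from 671.9, 702.5 and 841.6 to 33.8, 34.5 and 68.1. Hd3a, which encodes the florigen made in leaves, had 289.5, 484.6 and 191.7 in control and 7.7, 10.4 and 15 in drought, at least 13.8-fold lower (adjusted p = 2.5e-07). All 3 drought arrays of Hd3a were at background. The germin-like gene GLP2 fell at least 11.2-fold and BGLU12, a beta-glucosidase gene, by 3.56. LSD1 (LOC4344713) fell from 2931.0, 3536.0 and 3407.7 to 264.0, 349.1 and 571.4, by all 3 of its probe sets, and the gene LOC4348631, named chitinase in the table, changed by -3.01. OsWRKY24 (-3.34), a WRKY transcription factor gene, and OsPIN5a (-3.42), an auxin transporter gene, changed by similar amounts.

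Genes of protein protection rose together, though not evenly over the drought arrays. All 7 LEA and dehydrin genes measured rose, with a median change 5.17 above that of all genes. Of 19 small heat shock protein genes 13 rose (68.4%) and 1 fell (5.26%), with a median 3.77 above. HSP26.7 went from 8.6, 1.3 and 4.1 to 5696.6, 6879.0 and 2812.8, at least 317-fold higher (adjusted p = 1.2e-11), and HSP18.0 from 27.7, 41.3 and 24.6 to 8650.1, 8304.1 and 3426.1 (log2 change 7.07) by 1 of its 3 probe sets, of which 2 rose and the lowest changed by 0.04. HSP23.2 had 1.4, 2.9 and 4.7 against 2230.3, 2000.5 and 370.1, at least 78.3-fold higher. HSP18.1 (6.53), HSP16.9A (6.25) and HSP18.6 (5.67) rose too. The exception, HSP18.8 (LOC4343386), had 1436.4, 1416.1 and 1576.6 in control and fell to 165.2, 258.4 and 283.1 (log2 change -2.60, SE 0.20, adjusted p = 3.6e-08). Under quantile normalization, median centring or scaling to the same median 1 more member was called lower.

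Of 17 large chaperone genes 9 rose (52.9%) and none fell, with a median 0.36 above all genes. When signals were scaled to the same median 7 rose. CLPB1, a disaggregase gene, had 61.4, 73.6 and 67.3 in control and 1579.5, 995.0 and 230.8 in drought (log2 change 3.14, SE 0.70, adjusted p = 0.0023). CLPB-M had 34.3, 36.7 and 32.3 against 288.1, 335.1 and 156.6. In both, drought replicate 3 was above control but the lowest drought array. Of 20 heat stress transcription factor genes, which switch on chaperone genes, 8 rose (40%) and 3 fell (15%). HSFC2A (LOC4328809) rose from 13.3, 46.8 and 26.4 to 371.2, 476.4 and 575.2 (log2 change 3.50, SE 0.27, adjusted p = 3.4e-08), and HSFA2A from 11.4, 16 and 4.7 to 410.3, 415.5 and 74.7. The arrays were even for HSFC2A and not for HSFA2A. HSFA4D fell from 548.2, 555.9 and 426.3 to 122.7, 116.6 and 136.9 (log2 change -1.89), and HSFB1 by 1.08.

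Drought replicate 3 was the lowest drought array in 49.8% of all genes tested and in 66.3% of genes that rose. The share was 70.1% for genes that rose at least 4-fold and 25.6% for genes that fell. At the median its signal in these was 0.758 and 1.07 times the mean of the other drought arrays. It was the lowest in all 13 small heat shock protein genes that rose, where its signal was 0.258 times the mean of the other drought arrays at the median, in all 9 large chaperone genes (0.623 times) and in all 7 LEA and dehydrin genes (0.62 times). Of the genes that rose in other lists, it was the lowest in 26 of 27 antioxidant genes and 11 of 13 CIPK and CBL genes. In homeobox genes it was the lowest in 3 of 10 and in actin and tubulin genes in 4 of 11. Without this array 14 small heat shock protein genes rose and 1 fell, and 10 large chaperone genes rose and none fell. The cause of its lower signals was not tested.

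**Figure D3:**
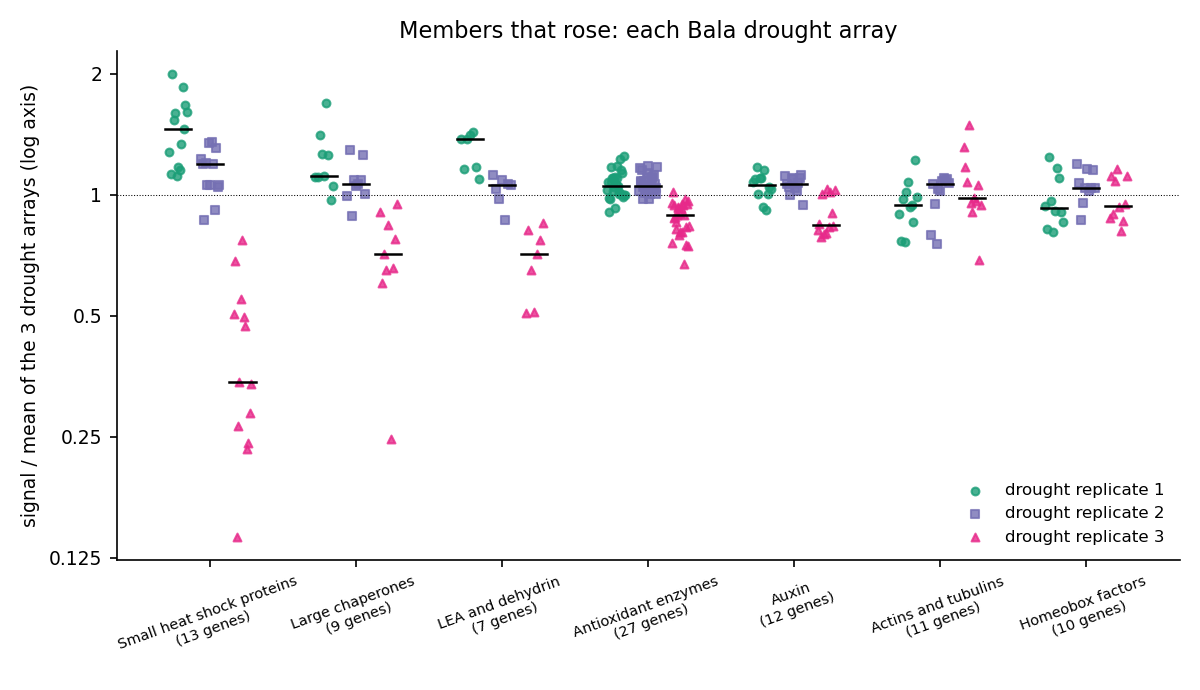
Signal of each Bala drought array divided by the mean of the 3 (log axis) for the list members that rose, with 1 point per gene and array and black bars at the medians. Replicate 3 (triangles) is below the other arrays for each of the 13 small heat shock protein genes. At the median it lies near them in homeobox genes and in actins and tubulins. In single actin and tubulin genes it was 0.595 to 1.96 times the mean of the other drought arrays.

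Homeobox, NAC and MYB transcription factor genes changed in both directions. Of 31 homeobox genes 10 rose and 5 fell, close to the shares of all genes, and after quantile normalization 8 rose and 7 fell. Homeodomain-leucine zipper genes led the rises. Hox22 (LOC4336542) went from 59.7, 90.1 and 43 to 1736.4, 1521.9 and 1204.3 (log2 change 4.25, SE 0.20, adjusted p = 1.1e-10). HOX24 went from 1.2, 6.4 and 0.7 to 318.3, 313.6 and 356.3, at least 21.8-fold higher. HOX1 fell from 1127.8, 1535.6 and 1597.8 to 526.0, 537.5 and 478.4 (log2 change -1.42), and Roc2 by 1.38. Of 7 NAC genes 1 rose (14.3%) and 3 fell (42.9%), against 27.4% and 14.1% of all genes. NAC2 (LOC4336052) rose at least 3.9-fold, from 9.5, 11.3 and 9.8 to 68.2, 50.9 and 58.7, while NAC067 changed by -1.16 and NAC010 fell at least 1.54-fold, to background. The fall of NAC010 was not called with log2(signal + 1) (adjusted p = 0.059). Of 11 MYB genes 3 rose (27.3%) and 4 fell (36.4%), and with spike-in centring or scaling 4 rose and 3 fell. MYB45 fell from 897.4, 1739.1 and 861.4 to 257.8, 156.5 and 170.9 (log2 change -2.44, SE 0.29, adjusted p = 5.9e-06), MYBAS1 changed by -1.61 and MYB2 by 1.09. JAMYB rose at least 2.47-fold, with 61.5, 49.3 and 17.2 in drought, a call lost without drought replicate 1 (adjusted p = 0.082) or 2 (0.065).

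CIPK kinases are activated by CBL proteins, which bind calcium. Of 30 CIPK and CBL genes 13 rose (43.3%) and 5 fell (16.7%), with a median 0.09 above all genes, and the count of falls was 2 without control replicate 2, control replicate 3 or drought replicate 2 and 3 without drought replicate 1. CIPK6 (LOC4345687) went from 69.6, 111.8 and 76.0 to 903.0, 984.4 and 904.9 (log2 change 3.24, SE 0.23, adjusted p = 1.3e-08), and CIPK16 from 37.3, 50.8 and 40.5 to 321.1, 480.0 and 306.2. The control and drought arrays were far apart in both. CIPK21 fell at least 1.66-fold, to background. CBL9 was dim in both groups, with 21.7, 16.6 and 27.8 in control and 6.6, 7.1 and 3.9 in drought, all 3 at background. CBL2 (LOC4325962) was at background in drought too, with 16.9, 4.3 and 2.0, while CBL3 and another gene named CBL2 (LOC4352701) stayed above it. Of 17 MAP kinase genes 3 rose (17.6%) and 4 fell (23.5%), with 7 lower after quantile normalization or scaling to the same median. MPK16 (1.07) and MPK15 (0.62) led the rises and BIMK1 (-1.35) and BIMK2 (-0.89) the falls, and the rise of MPK15 was lost after both of those scalings (adjusted p = 0.076 and 0.085), without a filter (0.053), and without control replicate 1, control replicate 2, drought replicate 2 or drought replicate 3 (0.059 to 0.12).

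**Figure D4:**
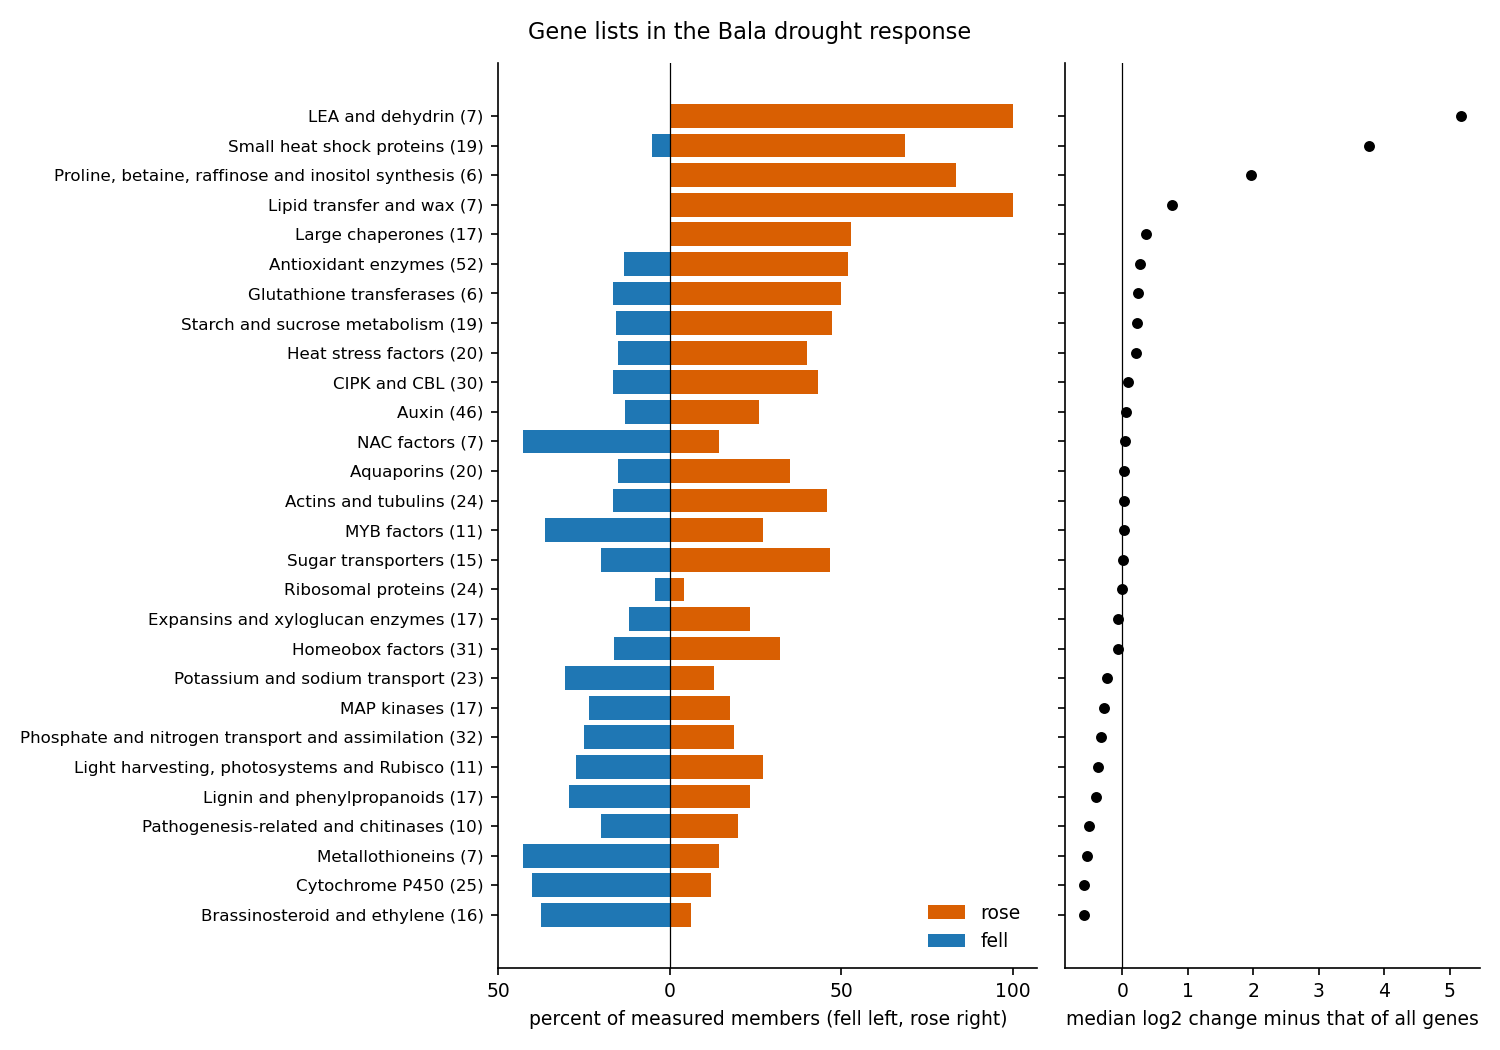
Left, the percent of measured members that rose (right of 0) or fell (left of 0) in each gene list, with the number measured in parentheses. Right, the median log2 change of the list minus that of all genes, which runs from -0.59 for brassinosteroid and ethylene genes to 5.17 for LEA and dehydrin genes.

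All 7 lipid transfer and wax genes measured rose, with a median 0.75 above all genes, and 6 rose after quantile normalization, after scaling to the same median or without drought replicate 3. LTP-2 (LOC4331362) went from 2.8, 16.7 and 1.3 to 629.8, 499.9 and 406.7 (log2 change 4.56, SE 0.24, adjusted p = 4.5e-10), and LTP2-B from 401.5, 335.6 and 411.5 to 3342.0, 2988.7 and 2510.9 by the brightest of 3 probe sets that all rose. Of 6 genes for proline, betaine, raffinose and inositol synthesis 5 rose (83.3%). The proline synthesis gene OsP5CS2 had 58.5, 74.2 and 65.9 against 2298.9, 1868.8 and 975.8 (log2 change 4.31), and RFS, a raffinose synthase gene, 95.5, 151.2 and 66.6 against 1807.6, 1244.4 and 1016.8 (3.53). Drought replicate 3 was lowest in all 5 that rose.

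Of 19 starch and sucrose genes 9 rose (47.4%) and 3 fell (15.8%), and after quantile normalization 7 rose and 5 fell. SSI (LOC9269493), named for a soluble starch synthase, rose from 122.0, 142.4 and 148.1 to 1784.7, 1708.0 and 1236.0 (log2 change 3.36, SE 0.18, adjusted p = 4.5e-10). GBSS-I, the granule-bound starch synthase gene, fell from 94.8, 130.3 and 91.2 to 31.1, 22.8 and 43 (-1.34). The sucrose synthase genes moved in opposite directions, OsSUS4 by 1.41 and OsSUS2 by -0.69. Of 15 sugar transporter genes 7 rose (46.7%) and 3 fell (20%). OsSWEET15, a sugar exporter gene, rose at least 21.1-fold, from 4.5, 3.3 and 10.9 to 505.6, 598.3 and 107.3, and OsSUT1, a sucrose uptake transporter gene, went from 94.1, 137.4 and 113.5 to 416.7, 288.4 and 277.0 (1.38). The monosaccharide transporter gene MST3 fell from 1699.8, 2234.9 and 1880.0 to 141.1, 186.7 and 331.2 (log2 change -3.12, SE 0.38, adjusted p = 7.9e-06), and OsSWEET5 at least 7.07-fold to background.

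Antioxidant genes leaned to rises, while metallothionein genes did not. Of 52 antioxidant genes, thioredoxins and glutaredoxins included, 27 rose (51.9%) and 7 fell (13.5%), and scaling to the same median gave 19 and 11. OsTrx14, a thioredoxin gene, had 788.2, 1464.1 and 956.6 in control and 5065.5, 5021.9 and 4497.7 in drought (log2 change 2.21, SE 0.18, adjusted p = 6e-08). SODCC.2, a copper-zinc superoxide dismutase gene, had 1650.9, 1533.4 and 2037.6 against 6966.2, 6665.7 and 6275.4 (1.93). The glutaredoxin genes GRXC15 and GRXC1 fell, GRXC15 from 444.5, 491.6 and 378.5 to 73.0, 94.1 and 99.3 (-2.12) and GRXC1 from 1086.5, 863.7 and 969.6 to 246.7, 176.6 and 271.0 (-2.01). Of 6 glutathione transferase genes 3 rose (50%) and 1 fell (16.7%), with 2 lower after quantile normalization. GST-I (LOC4325710) rose from 46.8, 80.4 and 45.9 to 1345.8, 1316.5 and 749.9 (log2 change 3.95, SE 0.25, adjusted p = 4.1e-09), GST1 changed by 1.43 and GSTU6 by -0.97. Of 7 metallothionein genes, whose proteins bind metal ions, MT2C alone rose (14.3%) and 3 fell (42.9%), with 2 higher after quantile normalization. MT2C had 541.9, 308.3 and 1078.7 against 5949.4, 5690.0 and 5407.0 (3.29), and each of its 5 probe sets rose. MT2B fell from 1796.8, 2166.9 and 1968.9 to 385.5, 605.3 and 545.9 (-1.94), by 2 of its 3 probe sets, and OsIDS1 by 1.72.

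Of 20 aquaporin genes 7 rose (35%) and 3 fell (15%), near the shares of all genes. PIP2-6 (LOC4335226), for a plasma membrane water channel, went from 367.6, 271.1 and 866.8 to 2371.2, 2135.8 and 1749.7 (log2 change 2.18, SE 0.29, adjusted p = 1.9e-05), and TIP1-2, for a vacuolar one, from 373.6, 537.8 and 135.9 to 1156.0, 1386.8 and 1329.7. TIP4-1 fell from 3994.9, 4074.5 and 4777.7 to 943.7, 1171.7 and 1370.2 (-1.88), and Lsi6, a silicon channel gene, by 1.60. Of 23 potassium and sodium transport genes 3 rose (13%) and 7 fell (30.4%), and after quantile normalization 11 fell. TPKB, a potassium channel gene, rose at least 8.26-fold from background, to 133.9, 140.2 and 103.4, and HAK10 changed by 1.61. HAK13 fell at least 4.57-fold, from 83.1, 120.5 and 98.3 to 2.8, 2.3 and 5.3, and HAK1 from 341.1, 629.0 and 232.8 to 74.7, 62.5 and 54.7 (log2 change -2.28, SE 0.28, adjusted p = 8.3e-06). Both belong to the family of potassium uptake transporters. Of 32 phosphate and nitrogen genes 6 rose (18.8%) and 8 fell (25%), with 12 lower after quantile normalization. OsPht1;1, a phosphate uptake transporter gene, went from 1160.3, 1195.8 and 1623.2 to 154.1, 106.4 and 164.4 (-3.09) by the probe set used and changed by 1.19 in its other one. OsPHO1;3 fell at least 3.23-fold. OsSPX1, of the phosphate sensing family, changed by 1.25 and the nitrate reductase gene NIA1 by 1.23.

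Cell wall, phenylpropanoid and cytoskeleton genes included single large rises. Of 17 expansin and xyloglucan enzyme genes, which loosen walls, 4 rose (23.5%) and 2 fell (11.8%), near the shares of all genes. EXP6 (LOC4332763) went from 12.8, 20.7 and 5.7 to 441.0, 319.2 and 228.6 (log2 change 3.56, SE 0.24, adjusted p = 6.4e-09) and EXLA3 changed by 1.17. EXPB9 fell at least 8.31-fold, from 250.3, 215.6 and 109.6 to background, and EXP32 at least 1.22-fold. Of 17 lignin and phenylpropanoid genes 4 rose (23.5%) and 5 fell (29.4%), with 8 lower after quantile normalization. Beside CHS, 4CL2, for a 4-coumarate-CoA ligase that feeds both lignin and flavonoid synthesis, rose at least 10.5-fold, from 0.3, 1.5 and 3.0 to 106.8, 203.1 and 185.7. CAD8C, of the cinnamyl alcohol dehydrogenase family, fell from 381.8, 448.0 and 586.9 to 38.9, 45.6 and 50.2 (log2 change -2.99, SE 0.18, adjusted p = 1.9e-09), and CAD2 by 2.07. Of 24 actin, tubulin and actin-depolymerising factor genes 11 rose (45.8%) and 4 fell (16.7%). TUBB1, a beta-tubulin gene, had 17.4, 23.6 and 27.8 in control and 357.0, 317.0 and 525.8 in drought (3.39), TUBB5 changed by 1.59, ADF-11 by -1.44 and ADF-9 was at background on all 3 drought arrays.

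Markers of other cell types moved beside these groups. Of 15 vascular and secondary wall genes 7 rose and 3 fell, and 5 were at background on all 6 arrays. Their summed signal was 1601 to 2110 in control and 1251 to 1551 in drought, most of the control sum coming from HOX1, and without HOX1 it was 473 to 520 in control and 713 to 1073 in drought, so the direction of the sum turned. CESA4, a secondary wall cellulose synthase gene, had 5.4, 11.7 and 4.5 against 92.2, 83.2 and 144.0, and CESA7 had 13.6, 11 and 7.9 against 89.0, 49.9 and 169.6. Beside HOX1, LAC7 and LAC19 fell. LAC7 had 216.3, 34.3 and 237.2 against 2.4, 19.4 and 1.8, and LAC19 had 36.1, 127.9 and 22.8 against 6.3, 0.5 and 0.7. Of 9 genes of dividing cells 2 rose, CYCA1-4 (0.76) and CYCA2-1 (0.95), and 6 were at background on all 6 arrays, the B-type cyclins among them. Their summed signal was 398 to 468 in control and 547 to 606 in drought. None of 5 root genes rose and 2 fell, and their summed signal, most of it from NAAT1, was 2644 to 3788 in control and 1236 to 1384 in drought. Roots were not sampled, so the signals of the root genes came from leaf pieces. The part of vascular and dividing cells in the changes of wall, tubulin and nutrient genes was not tested.

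Of 46 auxin genes 12 rose (26.1%) and 6 fell (13%), nearly the shares of all genes. The auxin response factor genes ARF15 (LOC9268260) and ARF2 (LOC4325895) rose. ARF15 went from 73.0, 72.8 and 73.9 to 549.9, 589.9 and 440.4 (log2 change 2.59, SE 0.16, adjusted p = 1.9e-09), and ARF2 changed by 2.10. Another gene that carries the name ARF2, LOC4326957, was not called (-0.06, adjusted p = 0.85). OsPIN5a went from 397.5, 623.2 and 316.0 to 36.7, 16.3 and 26.2, and SAUR39, of a family of small auxin-induced genes, changed by -1.31. The count of auxin genes that rose was 7 without drought replicate 1 or 2, and scaling to the same median gave 8 rises and 8 falls. Of 16 brassinosteroid and ethylene genes 1 rose (6.25%) and 6 fell (37.5%), with a median 0.59 below all genes. ACO1, which encodes the enzyme of the last step of ethylene synthesis, fell from 338.6, 436.8 and 389.8 to 51.3, 75.1 and 123.3 (log2 change -2.08, SE 0.34, adjusted p = 0.00015). EIL1, a transcription factor gene of ethylene signalling, fell from 4309.1, 4720.5 and 4615.3 to 1478.7, 1265.6 and 1745.8 (-1.60). The ethylene receptor gene ERS1 was the member that rose (0.52).

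Of 25 cytochrome P450 genes 3 rose (12%) and 10 fell (40.0%), with a median 0.58 below all genes. CYP734A4 (LOC4341450), of a family that inactivates brassinosteroids, fell at least 4.37-fold, from 73.8, 197.4 and 58.9 to 2.2, 2.3 and 3.3. CYP71P1, which makes serotonin from tryptamine, fell from 414.3, 824.5 and 209.6 to 91.5, 81.7 and 96.0 (log2 change -2.04, SE 0.37, adjusted p = 0.00039). CYP714C2 changed by 2.13 and CYP85A1, of brassinosteroid synthesis, by 1.18. Of 10 pathogenesis-related and chitinase genes 2 rose (20%) and 2 fell (20%), with 4 lower when signals were scaled to the same median. Cht4 (LOC4336263) went from 16.4, 5.4 and 13 to 1027.5, 853.6 and 394.4 (log2 change 4.73, SE 0.46, adjusted p = 5.7e-07), Cht11 changed by 1.19 and Cht6 fell at least 7.24-fold to background. The call of Cht2 (-0.61) was lost without control replicate 1 or 3 or drought replicate 1 or 2 (adjusted p = 0.051 to 0.11).

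Light harvesting, photosystem and Rubisco genes changed little in size and ribosomal protein genes hardly at all. Among green leaf markers outside these lists, PPDK2 changed by -1.9, GLO4 by -1.77 and GLO5 by -0.48, while GLO1 and GLO3 were not called. Of 11 light harvesting, photosystem and Rubisco genes 3 rose (27.3%) and 3 fell (27.3%), with a median 0.37 below all genes. Scaling to the same median gave 3 rises and 7 falls. CAB2R, a light harvesting protein gene, had 8728.0, 10559.5 and 10596.7 in control and 6455.0, 6849.3 and 6911.4 in drought (log2 change -0.56, SE 0.10, adjusted p = 0.00042). OsrbcS, for the small subunit of Rubisco, changed by -0.48. FNR (LOC4342399), for a ferredoxin-NADP reductase, had 313.3, 597.2 and 487.1 against 911.1, 830.3 and 662.2 (0.80), and OsPSAG, of photosystem I, changed by 0.66. The control and drought arrays of these 4 genes did not overlap. Of 24 ribosomal protein genes 1 rose (4.17%) and 1 fell (4.17%), well under the 27.4% and 14.1% of all genes, and all changes lay between -0.43 and 0.41. RPL7A-2 (0.41) was not called when signals were scaled to the same median (adjusted p = 0.12), when only the 6 Bala arrays were fitted (0.058), with no mean-variance trend (0.05 after rounding), or without control replicate 1, drought replicate 1 or drought replicate 2 (0.063 to 0.08). RPL27 (-0.43) was not called without control replicate 2, drought replicate 1 or drought replicate 2 (0.067 to 0.072). With spike-in centring or scaling 2 of the genes rose, and 5 rose without control replicate 3 and 4 without drought replicate 3.

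The size of some of these changes differed from that in Azucena, by a test of the difference between the cultivars' responses (14.9% of genes called). Of the 54 largest changes, 12 rises and 12 falls with a name and 15 of each with only a locus identifier, 26 were called. These genes were chosen for their change in Bala, which enters the same test, so neither the number called nor the direction of the differences is a result. CHS had a change of 6.18 in Bala and -0.06 in Azucena (difference 6.25, SE 0.26, adjusted p = 8.2e-10), where its mean signal was 2691 in control and 2529 in drought. LOC4340788 had 6.84 in Bala and -0.41 in Azucena, with Azucena means of 1818 and 1318, and LOC4347708 had 6.80 and 1.02, with 2448 and 5019. In these 3 genes the control level was high in Azucena and near background in Bala. HSP18.0 had 7.07 and 2.37. LOC4349395 changed by -4.87 in Bala and by -0.75 in Azucena, where its mean control signal was 25.1 against 704 in Bala, a difference not called with log2(signal + 1) (adjusted p = 0.053).

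**Figure D5:**
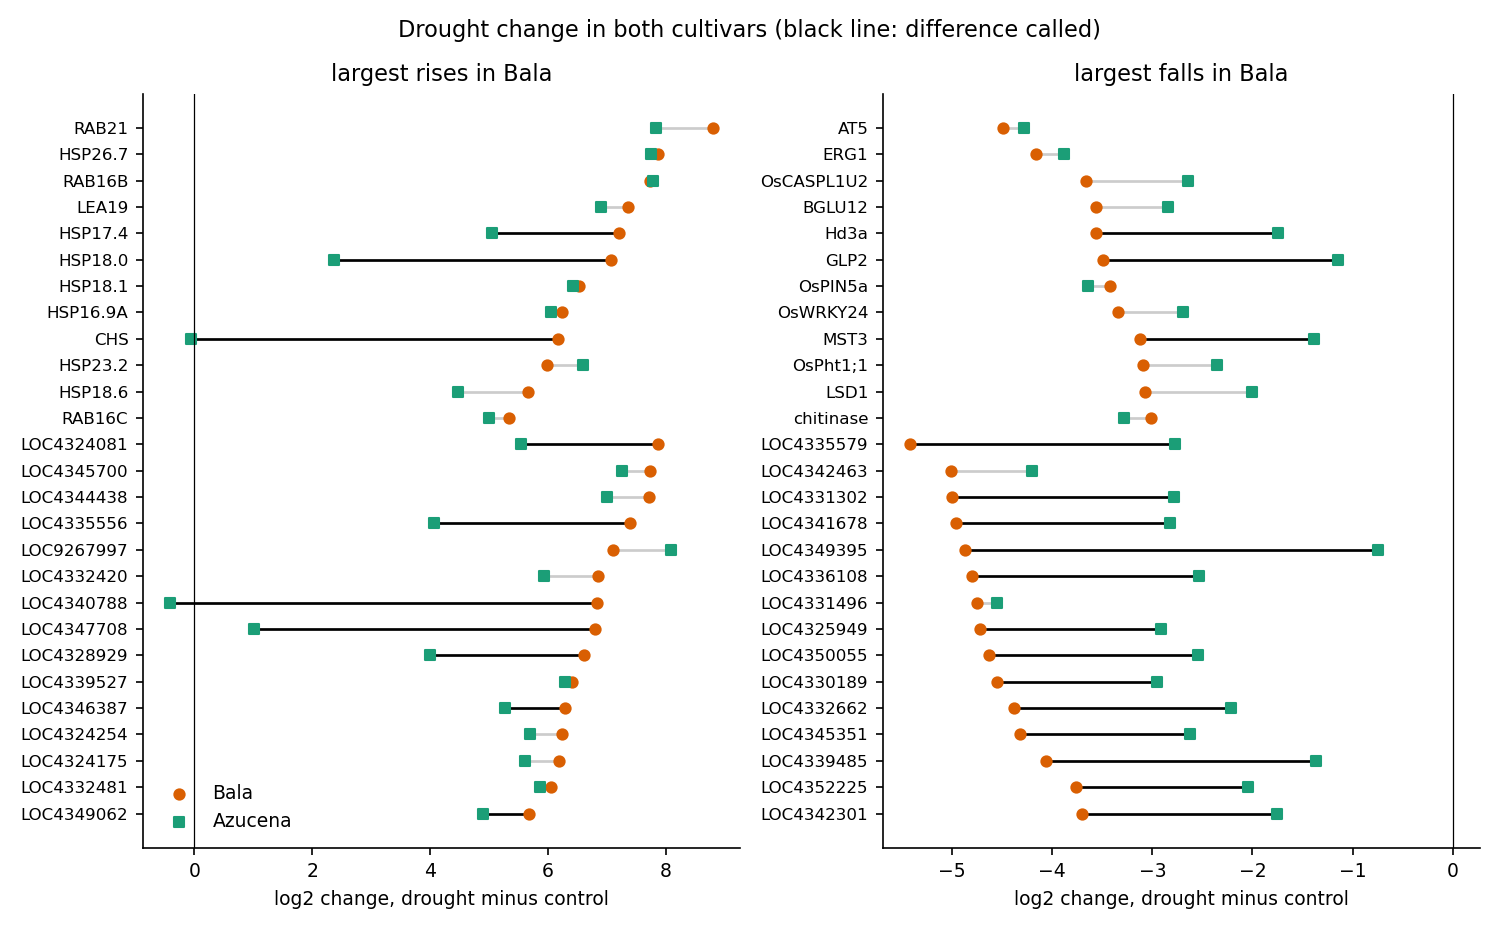
Log2 change (drought minus control) in Bala (circles) and Azucena (squares) for the 54 genes with the largest changes in Bala, rises on the left and falls on the right. Black lines join the values of the 26 genes whose difference was called, the longest being those of LOC4340788 (7.25) and CHS (6.25).

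Differences were also called for some genes named from the lists, where 14.9% of all genes were called. These too were chosen for their change in Bala, which enters the same test, so neither their number nor their direction is a result. The glutaredoxin gene GRXC1 changed by -2.01 in Bala and 1.32 in Azucena (adjusted p = 0.00021), and the glutathione transferase gene GST-I by 3.95 and -0.19. Of metallothionein genes, OsIDS1 changed by -1.72 and 1.01 and MT2C by 3.29 and -0.26. MT2B changed by -1.94 in Bala and by -3.39 in Azucena. Of regulators, MYB45 changed by -2.44 in Bala and 0.00 in Azucena, JAMYB by 0.91 and 3.83 and Hox22 by 4.25 and 2.76. Of wall and cytoskeleton genes, EXP6 changed by 3.56 and 0.58, 4CL2 by 3.32 and -0.39, and TUBB1 by 3.39 and 0.73. The 3′ to 5′ signal ratio of the GAPDH control was 5.25 to 6.9 on the Azucena arrays and 1.31 to 2.26 on the Bala arrays. Whether this, or sequence differences between the cultivars under the probes, bears on these values was not tested.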

How the data were processed

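RNA from 12 leaf samples, 3 per group by the labels, was hybridised to Affymetrix rice arrays. The deposited values are linear signal intensities made by the authors with MAS5, per the submitters' processing notes. The sources used here give no version, scaling target or detection calls for it. From these intensities log2(signal + 16) was computed, without further scaling. Probe sets had to exceed an array's median signal on at least 3 arrays, which kept 33476. All 12 arrays were fitted as group means in limma 3.58.1 (R 4.3.3) with lmFit and trended eBayes, with Benjamini-Hochberg adjustment at 0.05, after a check on simulated data. A gene is represented by its tested probe set with the highest mean.

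Of 57381 probe sets 22436 have 1 gene in the platform annotation, 95 have several and 34850 are not listed there. The genes named are the 12 largest called rises and falls with a name, the 15 largest of each with only a locus identifier, leading members of each list, 4 probe sets with no gene listed and the cell markers. Members, lists and tests were chosen with earlier results of these data known. The number of arrays limits the precision. Same-numbered samples did not deviate together (correlations of -0.0496, -0.0274 and -0.11), so no block was used. The labels call the replicates biological. Alternatives were other pseudocounts, filters and scalings, a replicate block, and leaving out each array. Promoter, protein and hydrophilin comparisons were not run.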

Additional observations from a re-analysis of the deposited data

Results flagged for a closer look

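The drought response differed between the cultivars in 63 of the 143 genes named here or held among the leading members of the lists, by limma's test of the difference between the 2 responses (14.9% of all genes tested were called). The values that follow are the log2 change in Bala minus that in Azucena, so a positive value stands for a change that was higher in Bala. The genes were ranked on their change in Bala, which enters the same test, so neither their number nor their direction is a result. No group has more than 3 arrays, so single arrays were not examined for outlying values by a formal test.

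Among the largest rises of named genes the difference was 2.15 for HSP17.4, 4.7 for HSP18.0 and 6.25 for CHS. Among the largest falls of named genes it was -1.82 for Hd3a, -2.34 for GLP2 and -1.74 for MST3. Among the largest rises of genes with only a locus identifier it was 2.33 for LOC4324081, 3.33 for LOC4335556, 7.25 for LOC4340788, 5.78 for LOC4347708, 2.62 for LOC4328929, 1.01 for LOC4346387 and 0.77 for LOC4349062. Among the falls of such genes it was -2.65 for LOC4335579, -2.22 for LOC4331302, -2.15 for LOC4341678, -4.12 for LOC4349395, -2.27 for LOC4336108, -1.8 for LOC4325949, -2.09 for LOC4350055, -1.6 for LOC4330189, -2.17 for LOC4332662, -1.7 for LOC4345351, -2.71 for LOC4339485, -1.72 for LOC4352225 and -1.95 for LOC4342301.

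Among members of the lists a higher change in Bala was measured as 1.14 for HSFA4D, 1.49 for Hox22, 1.17 for CIPK16, 1.42 for LTP2-B, 1.53 for SSI, 1.04 for OsSUT1, 1.93 for RFS, 4.15 for GST-I, 1.43 for GST1 and 3.54 for MT2C. Further such differences were 1.46 for MT2B, 1.06 for Lsi6, 2.98 for EXP6, 3.72 for 4CL2, 2.66 for TUBB1 and 1.93 for TUBB5. They were 1.71 for ADF-11, 1.28 for ARF15, 1.34 for ARF2 (LOC4325895), 1.12 for CYP714C2 and 1.97 for Cht11. A lower change in Bala was measured as -1.41 for HSP18.8, -1.22 for NAC010, -2.91 for JAMYB, -2.44 for MYB45, -1.52 for MYBAS1, -1.53 for CBL9, -0.95 for OsSUS4 and -1.71 for OsSWEET5. Further such differences were -3.33 for GRXC1, -2.73 for OsIDS1, -0.9 for TIP4-1, -1.61 for EXPB9, -1.29 for EXP32, -2.04 for CAD8C, -1.81 for SAUR39 and -0.62 for EIL1. What lies behind these differences was not tested.

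In 17 of these genes the call of the difference was lost under some alternative. It was lost under 10 settings each for EIL1 and LOC4349062, 9 for MST3, 8 each for CIPK16 and MYBAS1, 7 for Lsi6, 6 for TIP4-1, 5 for GST1 and 4 for OsSUS4, in each of which leaving out a single Bala array was enough (adjusted p of 0.054 to 0.14 for EIL1 and 0.054 to 0.13 for MST3 over those settings). It was lost without drought replicate 2 for CYP714C2 (0.053). For Hd3a and LOC4352225 it was lost with log2(signal + 1) and with no filter, for HSP17.4 with log2(signal + 64), and for LOC4349395, OsSWEET5, EXPB9 and EXP32 with log2(signal + 1).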

How the results depend on the processing

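Among the counts over all genes, those that moved by more than 1.5 times did so under quantile normalization, with 3327 genes lower instead of 2195 and 2777 genes with only a locus identifier lower instead of 1823. The share of higher calls was 66.0% of genes and 65.4% of probe sets. It was 51.6% and 50.6% after quantile normalization and 50.9% and 50.4% with signals scaled to the same median, a scaling added after the data were seen. Leaving out 1 array gave 4970 to 6305 genes called, 3095 to 4282 higher and 1832 to 2358 lower, and shares of higher calls of 57.3% to 69.1%. The labels share replicate numbers, and with the replicate block 6642 genes and 10790 probe sets were called, against 6465 and 10567. Of 2571 values for the drought change of 143 named genes under the alternatives, 23 lost the call, in 6 genes, and 0 reversed. Of 1069 values for differences between cultivars 77 lost the call, in 17 genes, among them HSP17.4 with log2(signal + 64) (0.94, adjusted p = 0.2) and Hd3a with log2(signal + 1) (-0.27, adjusted p = 0.86). Signals below about 24.2, the highest background level of the Bala arrays, have no order.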
